A study of Homo sapiens with 18 samples.

Results

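The genes described here are 10 that mark epithelial or mesenchymal identity, taken by symbol from a table of 26900 named genes. A group of 5 belongs to epithelial cells, namely the simple keratins KRT8, KRT18 and KRT19 and the adhesion proteins EPCAM and CDH1. The other 5 belong to mesenchymal cells: N-cadherin (CDH2), vimentin (VIM), fibronectin (FN1) and the transcription factors SNAI2 and ZEB1. All 10 had a row in the table, and 8 reached 1 TPM (transcripts per 1e6, scaled for gene length) in at least 3 libraries and could be tested. CDH2 and ZEB1 did not.

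RNA sequencing was carried out on 16D, labelled 16D CRPC, an established castration-resistant prostate cancer line, after infection with lentivirus for Cas9 and a guide RNA. Every group therefore carried Cas9 and a guide: sgAAVS (labelled control gRNA, for the AAVS site), sgOGDHL_1 (OGDHL gRNA 1) or sgOGDHL_2 (OGDHL gRNA 2), the last pair called guide 1 and guide 2 below. Vehicle (DMSO) or 10 µM of the antiandrogen enzalutamide was then kept on the cells of each guide for 6 weeks. Each of the 6 groups had 3 libraries. The labels do not say whether the infected cells were clones or pools, nor whether each replicate was its own culture, so the p-values cover the spread among these libraries, possibly a technical one. In bulk RNA, fewer cells that express a gene and less of its RNA per cell cannot be told apart.

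Simple epithelia, including the luminal layer of the prostate, build their intermediate filaments from pairs of a type II keratin (KRT8) and a type I keratin (KRT18 or KRT19). They join through E-cadherin (CDH1) at adherens junctions and carry the surface glycoprotein EPCAM. In epithelial-mesenchymal transition, repressors of the Snail and ZEB families, SNAI2 and ZEB1 among them, bind E-box elements in promoters such as that of CDH1. N-cadherin and vimentin filaments then replace E-cadherin and keratins, and matrix proteins such as fibronectin are secreted. Prostate cancer cells under antiandrogen treatment are often examined for such a shift, since loss of luminal identity is a known route to drug resistance.

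Several facts about the libraries bear on the values. OGDHL, the targeted gene, ranged from 2.11 to 2.17 TPM in control vehicle libraries, 0.505 to 1.35 TPM with guide 1 in vehicle, 3.13 to 3.79 TPM in control enzalutamide libraries, 0.909 to 1.11 TPM with guide 1 in enzalutamide and 1.63 to 1.80 TPM with guide 2 in enzalutamide. The 3 libraries labelled guide 2 in vehicle had 2.64 to 3.36 TPM, above the control, which goes against their label. They also correlated with the other 15 libraries at 0.884 to 0.922, against 0.950 to 0.998 among those 15, and listed 1407 to 1630 genes at 0, against 3042 to 4498 elsewhere. Mitochondrially encoded RNA took 57.2% to 73.8% of TPM with guide 1 in vehicle and 50.1% to 62.3% in the other groups, and TPM of all other genes falls as that share rises. The median change of all 13416 tested genes was also not 0 on the log2(TPM + 1) scale, and what moved it was not tested: -0.32 for guide 1 in vehicle, 0.18 for the libraries labelled guide 2 in vehicle, 0.23 for enzalutamide with guide 1 and -0.30 for enzalutamide with guide 2. It was -0.05 for enzalutamide in control cells, -0.06 for guide 1 and -0.07 for guide 2 in enzalutamide. Changes are read against these shifts. For the genes described here, calls altered by median-of-ratios scaling, which centres the bulk of genes, are also named or counted. A change on that scale is called the scaled change. The gene lists are counted on unscaled values, and scaled counts are given for some of them.

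All 18 libraries had an epithelial pattern with a luminal character. KRT18 ran from 85.2 to 201 TPM with a median of 145 TPM, CDH1 from 15.2 to 39.0 TPM with a median of 25.0 TPM, and EPCAM from 7.59 to 14.2 TPM with a median of 10.7 TPM. All 10 of a list of prostate luminal markers reached 1 TPM in each group, and the summed level of 9 basal markers was 0.398 to 1.63 TPM outside the libraries labelled guide 2 in vehicle. In those 3 libraries the basal sum was 9.59 to 11.2 TPM. Among the 9 basal markers the highest values in any library were 6.02 TPM for COL17A1, 2.13 TPM for NGFR, 1.30 TPM for ITGB4 and 1.01 TPM for KRT15. TP63 did not pass 0.00238 TPM or KRT5 0.118 TPM in any library. The sum of 6 leukocyte markers was 11.5 to 12.2 TPM in those 3 libraries, against 0.508 to 1.06 TPM elsewhere. CD68 made up most of the leukocyte sum, LYZ reached at most 1.29 TPM, and PTPRC did not pass 0.00120 TPM in any library. In the libraries labelled guide 2 in vehicle, the 3 basal and 2 leukocyte markers tested were all higher than in control vehicle libraries. Of all tested genes 41.0% were. The part of such cells or transcripts in the results was not tested. Fibroblast markers summed to 3.79 to 8.98 TPM, mainly COL1A1 (2.94 to 8.63 TPM).

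The mesenchymal genes fell into 2 classes. CDH2 was listed at 0 in 7 libraries and at no more than 0.000731 TPM in any, and ZEB1, a repressor of CDH1, ran from 0.000365 to 0.00812 TPM. Neither level can be told from noise in a table without depth, and no fold is given for them. VIM (0.623 to 5.81 TPM), SNAI2 (0.267 to 11.1 TPM) and FN1 (6.14 to 26.0 TPM) were measurable. SNAI2 reached 1 TPM only in the 9 vehicle libraries, KRT19 in 12 and VIM in 14, so these passed the filter through the groups where they were high.

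**Figure D1:**
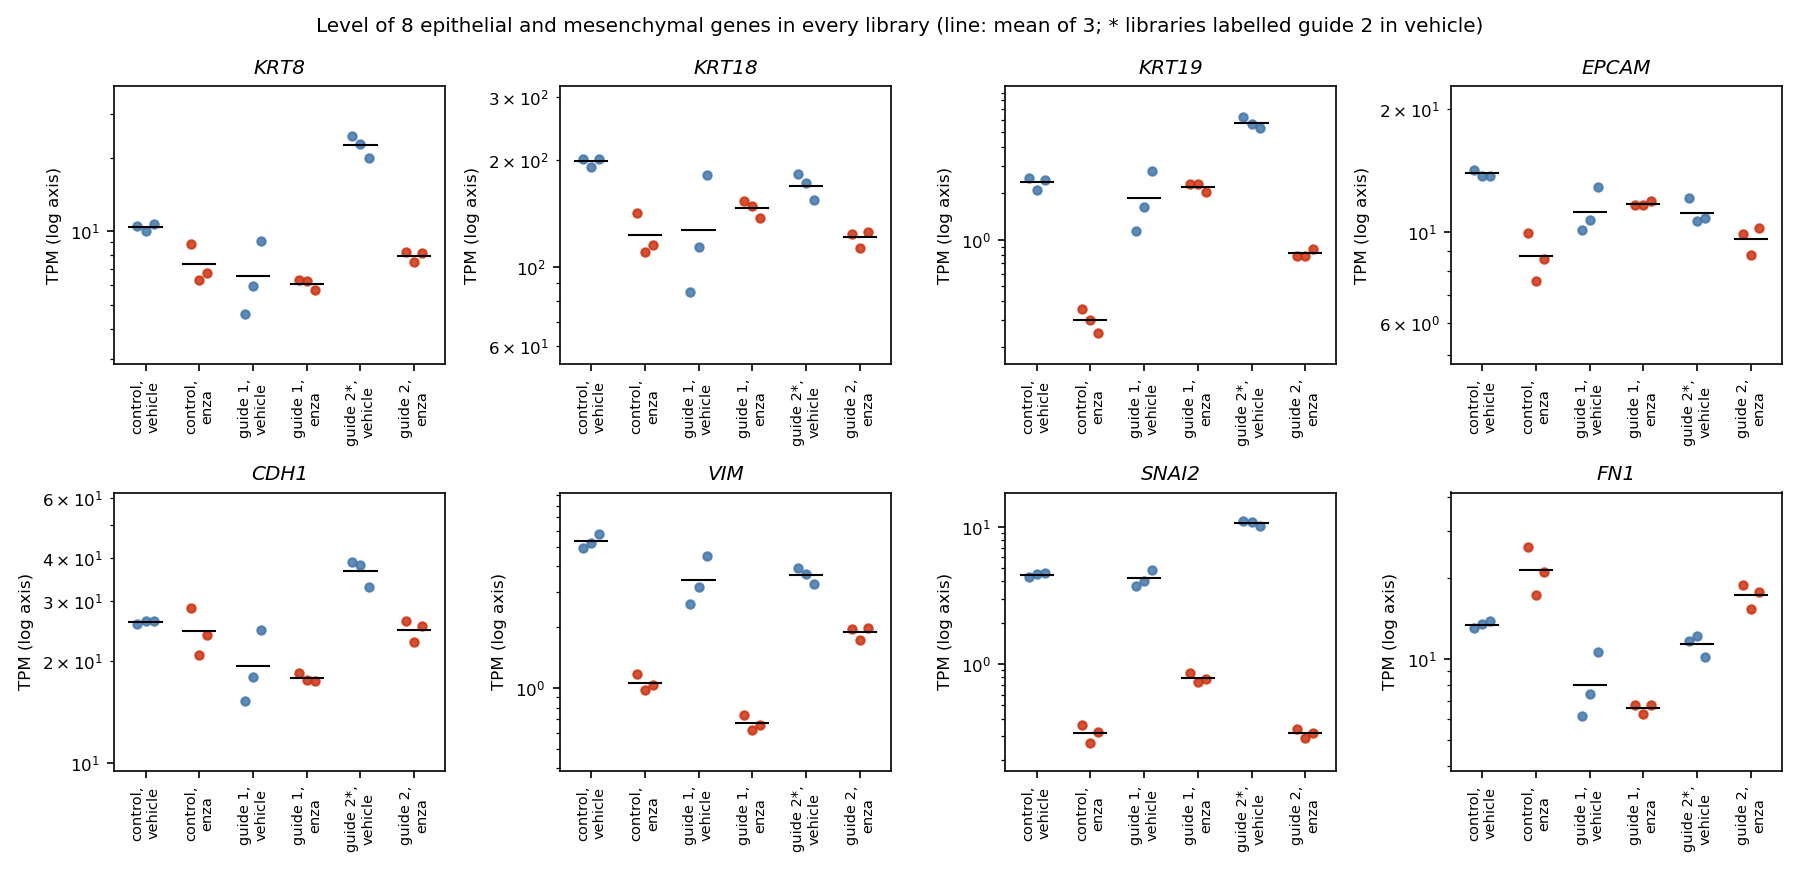
TPM of the 8 testable genes in each of the 18 libraries (log axis, 1 panel per gene); points are libraries, lines are means of 3, blue is vehicle and red enzalutamide. SNAI2 and VIM are lower in red than in blue in all 3 guides, KRT19 is lowest in control cells in enzalutamide at 0.248 to 0.353 TPM, and FN1 is highest there at 17.3 to 26.0 TPM.

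The first question was what enzalutamide did to these genes in control cells. By limma, 6 of the 8 tested genes passed, 5 lower and 1 higher, while 20.8% of all tested genes passed in that comparison (9.28% higher and 11.6% lower). SNAI2, VIM, KRT19, KRT18 and EPCAM fell, so the fall covered mesenchymal and epithelial genes alike. FN1 rose. CDH1 and KRT8 did not pass.

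SNAI2, the zinc-finger repressor also called Slug, stood at 4.30, 4.53 and 4.59 TPM in the control vehicle libraries, against 0.359, 0.267 and 0.322 TPM under the drug. The groups did not overlap, and the means of 4.47 ± 0.152 and 0.316 ± 0.0459 TPM (SD, n = 3) differed 14.2-fold. The log2 change was -2.06 ± 0.08 (SE, adjusted p = 2.2e-12), or -3.46 with a pseudocount of 0.1 in place of 1, since the pseudocount damps changes of low genes. SNAI2 lies on chromosome 8 (48917604 to 48921740, minus strand, GRCh38).

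VIM, the intermediate filament of mesenchymal cells, dropped from vehicle values of 4.93, 5.24 and 5.81 TPM to 1.18, 0.974 and 1.04 TPM. All 3 treated libraries lay far under all 3 vehicle libraries, with a 5.02-fold difference of the means (log2 change -1.62 ± 0.12 SE, adjusted p = 7.3e-09). FN1, which encodes the matrix glycoprotein fibronectin, moved the other way. Its vehicle values were 13.0, 13.5 and 13.8 TPM, and those under the drug 26.0, 17.3 and 21.1 TPM (log2 change 0.62 ± 0.16 SE, adjusted p = 0.0088). The groups did not overlap, and the treated libraries varied more (SD 4.36 against 0.401 TPM, n = 3).

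Since the 2 genes moved in opposite directions under the drug, the promoter sequence of each is shown, with that of KRT8 for an epithelial gene, as read from RefSeq on GRCh38.p14. Windows were found for 5 of the 10 genes. Each run is the gene's own strand, 5′ to 3′, and positions count back from the RefSeq transcription start. Searched on both strands were CAGGTG (an E-box that Snail and ZEB factors can bind), TGACGTCA (the cAMP response element), CCAAT (the CCAAT box), GGGCGG (the GC box) and the AP-1 element by its name alone. Capitals mark the matches, and the FN1 window stops short of the annotated gene, whose start lies upstream of the RefSeq start.
FN1, chr2:215436174-215436318, minus strand, -250 to -106: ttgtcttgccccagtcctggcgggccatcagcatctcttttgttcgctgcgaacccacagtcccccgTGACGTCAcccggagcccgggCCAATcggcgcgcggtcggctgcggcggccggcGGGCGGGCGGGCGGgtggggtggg
VIM, chr10:17227991-17228240, plus strand, -250 to -1: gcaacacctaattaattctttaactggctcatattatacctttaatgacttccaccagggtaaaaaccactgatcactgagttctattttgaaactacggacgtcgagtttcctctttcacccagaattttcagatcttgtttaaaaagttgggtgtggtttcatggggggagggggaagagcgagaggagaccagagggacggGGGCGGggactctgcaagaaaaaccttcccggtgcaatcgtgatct
KRT8, chr12:52926470-52926719, minus strand, -250 to -1: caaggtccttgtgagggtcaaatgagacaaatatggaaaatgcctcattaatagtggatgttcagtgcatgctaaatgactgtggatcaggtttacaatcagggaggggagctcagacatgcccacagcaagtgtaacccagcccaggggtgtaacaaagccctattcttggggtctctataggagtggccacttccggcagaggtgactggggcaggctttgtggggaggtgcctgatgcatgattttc

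The FN1 window held 1 cAMP response element, with its first base at -183, 1 CCAAT box at -162 and 3 GC boxes. Of 35116 promoter windows cut to the same 145 bases, 0.410% held TGACGTCA, 18.1% CCAAT and 24.9% GGGCGG. The VIM window, which the antisense gene VIM-AS1 spans, held 1 GC box at -46, which 42.6% of windows of 250 bases did. The KRT8 window, at 1 of several annotated starts of the gene and in an intron of its longer transcripts, held none of the 5 motifs. CAGGTG was in none of the 3 windows, against 11.3% of windows of 145 bases and 17.5% of 250 bases, and the AP-1 element was in none either (3.65% and 6.57%). These letters are a description of the windows and say nothing of which factors bind there.

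Among the epithelial genes, KRT19, a small keratin without a tail domain, fell most in control cells under the drug. It went from 2.53, 2.09 and 2.45 TPM to 0.353, 0.299 and 0.248 TPM, a 7.87-fold difference of the means (log2 change -1.37 ± 0.14 SE, adjusted p = 5.8e-07). The groups were well apart. EPCAM fell from 14.2, 13.7 and 13.7 TPM to 9.93, 7.59 and 8.60 TPM (log2 change -0.62 ± 0.11 SE, adjusted p = 5.1e-04), again without overlap.

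KRT18 fell from 201, 191 and 201 TPM to 142, 110 and 115 TPM (log2 change -0.69 ± 0.19 SE, adjusted p = 0.013). Every treated library was under every vehicle library, but the call was lost without control enzalutamide replicate 2 (-0.62, adjusted p = 0.059) or 3 (-0.65, adjusted p = 0.055). KRT8, its type II partner, stood at 10.5, 10.0 and 10.7 TPM without the drug, against 8.85, 6.33 and 6.75 TPM with it. These groups did not overlap, yet the log2 change of -0.47 ± 0.16 SE just missed the threshold (adjusted p = 0.052). The scaled change of KRT8 was -0.45 (adjusted p = 1.2e-06), in a setting where 7 of the 8 genes and 52.7% of all genes passed, and the unscaled change passed without control enzalutamide replicate 1 (-0.60, adjusted p = 0.022).

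CDH1, which encodes E-cadherin, did not pass: its values were 25.6, 26.2 and 26.1 TPM without the drug, against 28.5, 20.8 and 23.8 TPM with it. The treated libraries lay on both sides of the vehicle ones, with a log2 change of -0.10 (95% interval -0.41 to 0.21, adjusted p = 0.70). CDH1 and EPCAM, the adhesion genes, thus had intervals of -0.41 to 0.21 and -0.86 to -0.38.

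KRT8 and KRT18 levels carry a reservation about counting. Both genes have many processed pseudogenes that are near copies, and reads can be split among them. The 39 rows of KRT8 pseudogenes summed to 79.1 TPM in control vehicle libraries, against 10.4 TPM for KRT8 itself, and to 169 against 22.4 TPM in the libraries labelled guide 2 in vehicle. The 47 rows of KRT18 pseudogenes summed to 45.5 TPM, against 198 TPM for KRT18. The genes also overlap on chromosome 12, with KRT8 at 52897187 to 52949954 on the minus strand and KRT18 at 52948871 to 52952901 on the plus strand. The kit kept strand, but the sources used here do not say whether the counting used it.

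The next question was whether cells with an OGDHL guide differed from control cells when both were in enzalutamide. With guide 1, 4 of the 8 tested genes passed, against 7.07% of all tested genes (2.15% higher and 4.91% lower). KRT19, EPCAM and SNAI2 were higher than in control cells and FN1 was lower. After median-of-ratios scaling 7 passed, with 4 higher and 3 lower, and 36.1% of all genes did (20.6% higher and 15.5% lower).

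KRT19 had 2.29, 2.28 and 2.04 TPM with guide 1 in enzalutamide, against 0.353, 0.299 and 0.248 TPM in control cells in enzalutamide. The guide 1 libraries were 7.34-fold higher in the mean (log2 change 1.30 ± 0.14 SE, adjusted p = 4.8e-06) and lay in the range of 2.09 to 2.53 TPM seen in control cells in vehicle, apart from the lowest library. EPCAM had 11.6, 11.6 and 11.9 TPM, above all 3 control libraries (7.59 to 9.93 TPM). Its log2 change of 0.39 ± 0.11 SE passed narrowly (adjusted p = 0.043), and leaving out any of 14 of the 18 libraries, 1 at a time, ended the call, with changes of 0.31 to 0.48 over all 18.

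FN1 was lower with guide 1, at 6.73, 6.22 and 6.77 TPM against 26.0, 17.3 and 21.1 TPM in control cells in enzalutamide. That is a 3.27-fold difference of the means with no overlap (log2 change -1.55 ± 0.16 SE, adjusted p = 3.2e-06). SNAI2 had 0.858, 0.741 and 0.781 TPM with guide 1, 2.51-fold above control cells in enzalutamide (log2 change 0.45 ± 0.08 SE, adjusted p = 0.0017). No library in that comparison reached 1 TPM of SNAI2, and the call was lost with a pseudocount of 5 (0.12, adjusted p = 0.12).

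CDH1 and VIM were lower with guide 1 in all 3 libraries without passing. CDH1 had 18.4, 17.6 and 17.5 TPM against 28.5, 20.8 and 23.8 TPM (log2 change -0.42, adjusted p = 0.11), and VIM had 0.738, 0.623 and 0.658 TPM against 1.18, 0.974 and 1.04 TPM (-0.30, adjusted p = 0.16). Neither gene's groups overlapped. Replicate numbers paired these 2 groups by correlation (0.25, 0.11 and 0.20), and this block was chosen after seeing the data. In a fit of the 6 libraries with the number as a block both passed (CDH1 -0.42, adjusted p = 0.0048 and VIM -0.30, adjusted p = 8.2e-05). In that fit 6 of the tested members and 21.9% of all genes passed. Without the block, the same libraries gave 6 members and 14.4% of all genes. With the block over all libraries, 3 members and 6.00% of all genes passed. The part of the pairing in the calls of CDH1 and VIM was not tested. Both genes also passed after scaling (CDH1 -0.31, adjusted p = 3.4e-06 and VIM -0.25, adjusted p = 3.4e-04). KRT18 (153, 148 and 137 TPM against 142, 110 and 115 TPM) overlapped and did not pass (0.26, 95% interval -0.14 to 0.66), although the scaled change did (0.37, adjusted p = 8.9e-05). KRT8 had a log2 change of -0.21 (95% interval -0.56 to 0.13, adjusted p = 0.57).

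With guide 2 in enzalutamide, none of the 8 tested genes passed by limma, where 1.25% of all tested genes did. At an unadjusted p under 0.05 there were 1 of 5 epithelial genes, KRT19, and 1 of 3 mesenchymal genes, VIM. KRT19 had 0.786, 0.783 and 0.874 TPM, 2.72-fold above control cells and without overlap (log2 change 0.48 ± 0.14 SE, adjusted p = 0.13). VIM had 1.97, 1.73 and 1.99 TPM, 1.78-fold above control cells and also without overlap (0.49 ± 0.12 SE, adjusted p = 0.051).

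Both passed with a pseudocount of 0.1 (KRT19 1.20, adjusted p = 0.0055 and VIM 0.78, adjusted p = 0.016), as they did without guide 1 vehicle replicate 1 or 3, which enter only through the shared spread (adjusted p = 0.019 and 0.0014 for KRT19, 0.0099 and 9.3e-04 for VIM). After median-of-ratios scaling 5 passed, with KRT8 (0.19), KRT19 (0.51), CDH1 (0.11) and VIM (0.54) higher and FN1 (-0.20) lower, where 17.3% of all genes did. SNAI2 had 0.337, 0.291 and 0.316 TPM with guide 2 and its log2 change from control cells was 0.00 (95% interval -0.18 to 0.17). FN1 had 18.8, 15.3 and 17.7 TPM, which overlapped the control libraries (-0.29, 95% interval -0.62 to 0.05).

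The guides were also set against each other in enzalutamide, a comparison added after the data were seen, which shares no control. Of the 8 tested genes 4 passed for guide 2 less guide 1, 2 in each direction, where 12.9% of all tested genes did (6.30% higher and 6.65% lower). VIM (log2 change 0.79 ± 0.12 SE, adjusted p = 1.7e-04) and FN1 (1.27 ± 0.16 SE, adjusted p = 2.8e-05) were higher with guide 2, by 2.82-fold and 2.63-fold of the means. KRT19 (-0.82 ± 0.14 SE, adjusted p = 5.5e-04) and SNAI2 (-0.45 ± 0.08 SE, adjusted p = 0.0012) were lower with guide 2. CDH1 was 1.39-fold higher with guide 2 and did not pass (0.45, adjusted p = 0.056), with groups that did not overlap. After scaling all 8 passed, where 47.0% of all genes did.

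**Figure D2:**
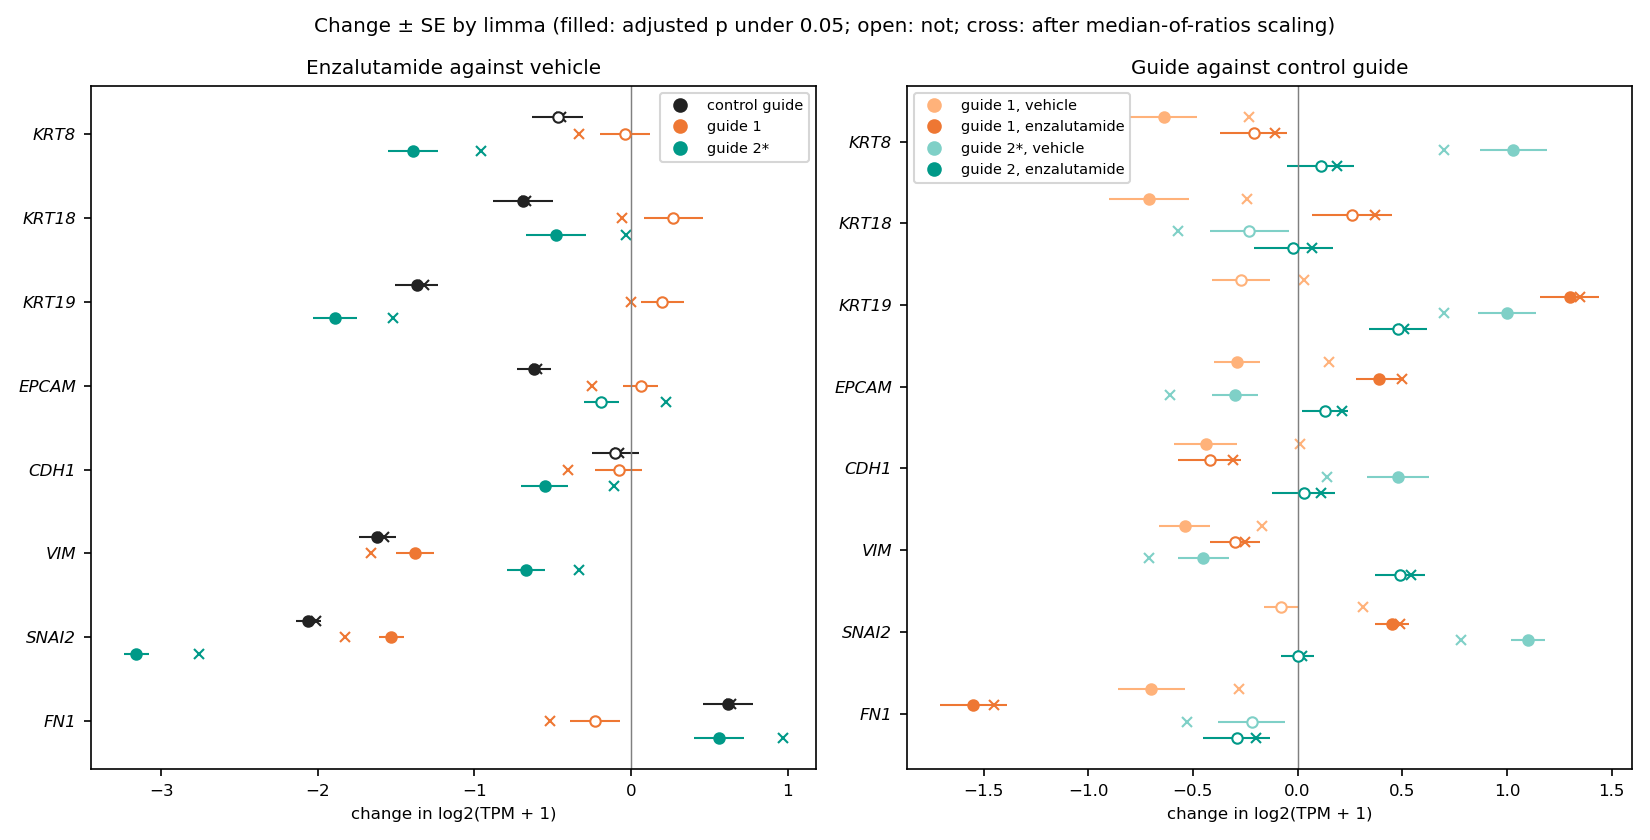
Change in log2(TPM + 1) of each tested gene by limma, with enzalutamide against vehicle on the left and each guide against the control guide on the right; circles with SE bars are TPM as deposited (filled where the adjusted p was under 0.05), crosses are after median-of-ratios scaling, and * marks comparisons with the vehicle libraries labelled guide 2. KRT19 changed by -1.37 with the drug in control cells and 0.20 in guide 1 cells, and FN1 by 0.62 and -0.23.

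Enzalutamide against vehicle in guide 1 cells gave 2 calls among the 8 tested genes, both lower, where 29.9% of all tested genes passed (26.3% higher and 3.54% lower). VIM fell from 2.61, 3.16 and 4.50 TPM to 0.738, 0.623 and 0.658 TPM, 5.09-fold in the mean (log2 change -1.38 ± 0.12 SE, adjusted p = 1.5e-07). SNAI2 fell from 3.71, 4.01 and 4.88 TPM to 0.858, 0.741 and 0.781 TPM, 5.29-fold (-1.53 ± 0.08 SE, adjusted p = 3.1e-10). Neither gene's groups overlapped.

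KRT19 stood at 1.14, 1.64 and 2.80 TPM in guide 1 vehicle libraries, against 2.29, 2.28 and 2.04 TPM under the drug, so its groups overlapped (0.20, 95% interval -0.09 to 0.50). FN1 stood at 6.14, 7.39 and 10.6 TPM without the drug, against 6.73, 6.22 and 6.77 TPM with it (-0.23, 95% interval -0.56 to 0.11). In all 8 genes vehicle replicate 3, of the lowest mitochondrial share, was the highest of its group and replicate 1, of the highest share, the lowest. After scaling 6 genes passed, all lower: VIM (-1.66), SNAI2 (-1.83), FN1 (-0.52), CDH1 (-0.40), KRT8 (-0.33) and EPCAM (-0.25), while 48.5% of all genes did (24.9% higher and 23.6% lower). Without vehicle replicate 3, KRT18 (0.56) and KRT19 (0.43) passed as higher in enzalutamide on the unscaled values, which made 4 calls. Vehicle replicates 1 and 2, left in that fit, had mitochondrial shares of 73.8% and 69.9%. Over the fits that left out 1 library at a time, 11.1% to 74.0% of all tested genes passed in this comparison.

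With guide 2, the fall or rise under enzalutamide is measured from the 3 vehicle libraries that stand apart, and cannot be given without them. Of the 8 tested genes 7 passed, 6 lower and 1 higher, where 59.5% of all tested genes did (48.3% lower and 11.2% higher). SNAI2 went from 11.1, 10.9 and 10.2 TPM to 0.337, 0.291 and 0.316 TPM (log2 change -3.16 ± 0.08 SE, adjusted p = 4.7e-16), and KRT19 from 6.21, 5.64 and 5.30 TPM to 0.786, 0.783 and 0.874 TPM (-1.89 ± 0.14 SE). KRT8 (-1.39), VIM (-0.67), CDH1 (-0.55) and KRT18 (-0.48) were lower, and FN1 was higher (0.56 ± 0.16 SE, adjusted p = 0.0062). Leaving out any 1 of 5 of the 6 guide 2 libraries ended the call of KRT18 (adjusted p = 0.060 to 0.11). After scaling, KRT18 no longer passed (-0.03, adjusted p = 0.62) and EPCAM, at -0.19 unscaled (adjusted p = 0.15), was higher (0.22, adjusted p = 0.026), which made 2 higher and 5 lower, where 74.1% of all genes passed (40.6% higher and 33.5% lower).

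In vehicle, guide 1 cells differed from control cells in 6 of the 8 tested genes, all lower, but 57.8% of all tested genes passed and 57.5% were lower. KRT18 had 85.2, 114 and 181 TPM against 201, 191 and 201 TPM (log2 change -0.71 ± 0.19 SE, adjusted p = 0.018), and FN1 6.14, 7.39 and 10.6 TPM against 13.0, 13.5 and 13.8 TPM (-0.70 ± 0.16 SE, adjusted p = 0.018). KRT8 (-0.64), VIM (-0.54), CDH1 (-0.44) and EPCAM (-0.29) were the others. None passed in a fit of these 6 libraries alone, nor without control vehicle replicate 1 or 3 or guide 1 vehicle replicate 1 or 2, and EPCAM was lost without any of 10 of the 18 libraries. After scaling, FN1 (-0.28), KRT18 (-0.24), KRT8 (-0.23) and VIM (-0.17) were lower, SNAI2 was higher (0.31, adjusted p = 0.010), and EPCAM (0.15) and CDH1 (0.01) did not pass, where 43.1% of all genes did (19.4% higher and 23.7% lower).

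The libraries labelled guide 2 in vehicle differed from control vehicle libraries in 6 of the 8 tested genes, where 59.0% of all tested genes passed and 41.0% were higher. SNAI2 was higher, at 11.1, 10.9 and 10.2 TPM against 4.30, 4.53 and 4.59 TPM (log2 change 1.10 ± 0.08 SE, adjusted p = 2.6e-09). KRT19 (1.00), KRT8 (1.03) and CDH1 (0.48) were higher as well, and CDH1 had 39.0, 38.1 and 32.9 TPM, the highest level in any group. VIM (-0.45) and EPCAM (-0.30) were lower, and leaving out any of 5 of the 6 libraries compared ended the call of EPCAM (adjusted p = 0.067 to 0.11). In the same libraries the basal and leukocyte marker sums were at their highest, and their part in these differences was not tested. After scaling all 8 passed, 4 higher and 4 lower, where 77.8% of all genes did (34.1% higher and 43.6% lower).

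Whether the drug's change differed between guides was tested by the interaction, which sets the change in guide 1 or guide 2 cells against that in control cells. For guide 1, 5 of the 8 tested genes passed, where 6.95% of all tested genes did (5.67% higher and 1.27% lower), and the median interaction of all genes was 0.27. KRT19 differed by 1.57 ± 0.20 SE (adjusted p = 5.9e-05), with a fall in control cells and no call in guide 1 cells. FN1 differed by -0.85 ± 0.23 SE (adjusted p = 0.034), with a rise in control cells and no call in guide 1 cells. KRT18 (0.96), EPCAM (0.68) and SNAI2 (0.53) passed as well. Leaving out any of 15 of the 18 libraries, 1 at a time, ended the call of KRT18 (adjusted p = 0.050 to 0.11), any of 8 that of FN1 (0.063 to 0.083) and either of 2 that of EPCAM (0.054 and 0.060), while KRT19 and SNAI2 passed in all 18 such fits. VIM did not pass (0.23, 95% interval -0.12 to 0.59). After scaling KRT19 (1.33), FN1 (-1.16), KRT18 (0.61) and EPCAM (0.35) still passed, CDH1 passed as lower (-0.32, adjusted p = 1.1e-04) and SNAI2 did not pass (0.18, adjusted p = 0.15), where 34.0% of all genes did (19.9% higher and 14.1% lower). Without the 3 libraries labelled guide 2 in vehicle, which enter only through the shared spread, KRT18 (adjusted p = 0.065) and FN1 (adjusted p = 0.057) did not pass.

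For guide 2 the interaction rests on the vehicle libraries that stand apart. It passed for 5 of the 8 tested genes, where 43.6% of all tested genes did (8.71% higher and 34.9% lower), with a median of -0.26 over all genes. VIM (0.94 ± 0.17 SE, adjusted p = 2.0e-04) and EPCAM (0.43) were higher, and SNAI2 (-1.10), KRT8 (-0.92) and KRT19 (-0.52) lower. The call of EPCAM was lost on leaving out any of 12 of the 18 libraries (adjusted p = 0.052 to 0.094) and that of KRT19 any of 10 (0.053 to 0.095), and those of VIM, SNAI2 and KRT8 were kept in all 18 fits. After scaling 6 passed, 4 higher and 2 lower, and KRT19 was not among them (-0.19, adjusted p = 0.097), where 66.4% of all genes passed (37.4% higher and 29.0% lower).

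A ratio of 2 genes within 1 library is not moved by the mitochondrial share or by any scaling, so ratios were computed as a description. KRT18 to VIM, on the log2 scale of TPM, averaged 5.22 in control vehicle libraries and 6.85 in enzalutamide (SD 0.12 and 0.06, n = 3). With guide 1 it was 5.18 in vehicle and 7.76 in enzalutamide, and with guide 2 it was 5.55 and 5.99. In every guide the ratio of this epithelial to this mesenchymal filament gene was higher in all 3 drug libraries than in all 3 vehicle libraries, and guide 1 cells in enzalutamide had the highest, at 7.70, 7.89 and 7.70. VIM was lower under the drug in every guide. Mean KRT18 was 198 TPM in vehicle and 123 TPM in enzalutamide in control cells, 127 and 146 TPM with guide 1, and 169 and 121 TPM with guide 2. Other pairs differed: in control cells EPCAM fell and FN1 rose under the drug.

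KRT8 to KRT18 was planned as well, while the other ratios below were chosen after the values were seen. A planned ratio of CDH1 to CDH2 is not given, with CDH2 listed at 0 in 7 libraries. FN1 to VIM averaged 1.34 in control vehicle libraries and 4.32 in enzalutamide, 1.23 and 3.29 with guide 1, and 1.65 and 3.18 with guide 2, so these mesenchymal genes drew apart in each guide. KRT19 to KRT18 averaged -6.39 in vehicle and -8.68 in enzalutamide in control cells. With guide 1 it was -6.12 and -6.05, and with guide 2 -4.89 and -7.21. KRT8 to KRT18 was -4.25 and -4.07 in control cells, -4.26 and -4.58 with guide 1, and -2.92 and -3.93 with guide 2, the vehicle value again from the libraries that stand apart. SNAI2 to VIM was -0.25 and -1.75 in control cells, 0.32 and 0.24 with guide 1 and 1.57 and -2.59 with guide 2.

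**Figure D3:**
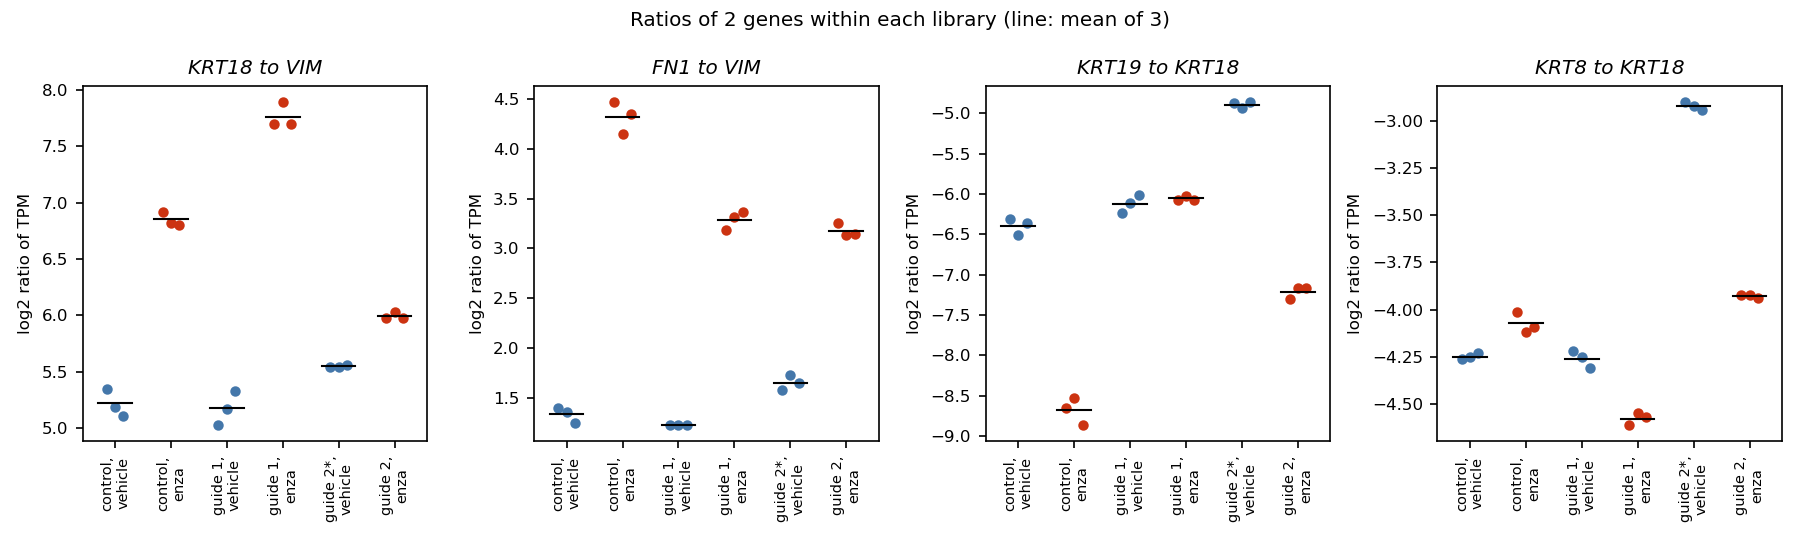
Log2 ratio of the TPM of 2 genes within each library, in the 6 groups; points are libraries, lines are means of 3, blue is vehicle and red enzalutamide. KRT19 to KRT18 is -8.86 to -8.53 in control cells in enzalutamide and -6.07 to -6.02 in guide 1 cells in enzalutamide, and guide 2* marks the libraries labelled guide 2 in vehicle.

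Genes around these 10 in the same programmes were taken from lists. In control cells under enzalutamide, where the median of all genes was -0.05 and 9.28% of them passed as higher and 11.6% as lower, 7 of 11 tested genes of the TGF-beta pathway passed as higher and 0 as lower (median of the list 0.56). After scaling 8 were higher and 1 lower, where 52.7% of all genes passed. That list holds 17 genes, some of which dampen the signalling, so its count gives no direction of signalling. Its ligands and type II receptor were too low to test. TGFB1, TGFB2, TGFB3 and TGFBR2 reached at most 0.0527, 0.00786, 0.180 and 0.0968 TPM in any library. ID1, a helix-loop-helix target of BMP and TGF-beta signalling, rose from 14.9 to 64.1 TPM (log2 change 2.03), and BAMBI, a pseudoreceptor that dampens that signalling, from 37.6 to 126 TPM (1.71). Of 4 tested EMT transcription factors other than SNAI2 and ZEB1, 3 were higher and 0 lower, with LEF1 at 0.95 and GSC at 0.50. ZEB2 (at most 0.00159 TPM), TWIST1 (0.171 TPM) and PRRX1 (0.00745 TPM) stayed under the filter in every library.

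Other mesenchymal and matrix genes went both ways, with 3 of 9 higher and 4 lower (median 0.03), beside 9.28% and 11.6% of all tested genes. TNC, which encodes the matrix protein tenascin-C, rose from 0.00701 to 3.48 TPM (2.14) and COL6A1, a collagen VI chain, from 2.72 to 8.70 TPM (1.38). LOX, which cross-links collagen, fell from 1.92 to 0.0705 TPM (-1.45), and TAGLN, an actin-binding protein of smooth muscle, from 2.41 to 0.972 TPM (-0.79). The lower levels of TNC and LOX are near the floor, and both genes passed the filter through the groups where they were high. Integrins had 2 of 7 higher, ITGA3 (0.67) and ITGB4 (0.65), and 1 lower, ITGA6 (-0.53).

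The 3 lists of junction genes differed in the same comparison, where 11.6% of all tested genes were lower and 9.28% higher. Of 14 tight junction genes 6 were lower and 1 higher (median -0.42), with CLDN3 at -0.95, CLDN12 at -0.91 and OCLN, occludin, at 1.06. Of 7 desmosome genes 3 were lower and 0 higher (median -0.38). DSG2, a desmosomal cadherin, fell from 34.7 to 12.6 TPM (-1.41) and DSC2, its partner, from 9.98 to 3.92 TPM (-1.17). Of 9 adherens junction and catenin genes 2 were higher, PKP4 (0.58) and NECTIN4 (0.39), and 0 lower (median 0.07). After scaling, where 52.7% of all genes passed, tight junction genes had 3 higher and 10 lower. Desmosome genes then had 1 higher and 4 lower, and adherens junction genes 4 higher and 3 lower.

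Epithelial transcription and splicing regulators had 4 of 11 lower and 1 higher (median -0.12), beside 11.6% and 9.28% of all tested genes, shares that also stand behind the next 3 lists. EHF, an ETS factor of epithelia, fell from 104 to 39.6 TPM (-1.38), KLF5 changed by -0.80 and OVOL1 by 1.17. After scaling 4 regulators were higher and 5 lower, where 52.7% of all genes passed. Other epithelial surface genes split, with CD24 (0.99) among 2 of 13 higher, and ERBB3 (-0.71) and LAD1 (-0.51) among 3 lower. Of other keratins 2 were testable, and KRT80 was lower (-0.21) at 0.302 and 0.127 TPM. Both levels are under 1 TPM, and KRT80 passed the filter only through other groups, with a maximum of 2.94 TPM. The luminal markers had 3 of 10 higher, with ACP3 at 1.69, and 5 lower, with SLC45A3 at -3.76 and KLK3 at -2.68. KLK3, the androgen-driven gene for PSA, went from 379 to 58.6 TPM.

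With guide 1 in enzalutamide, set against control cells in enzalutamide, the same lists were read again, beside 2.15% of all tested genes higher and 4.91% lower (median -0.06). The comparison shares the control enzalutamide libraries with the one above, so opposite signs in the pair carry no separate weight. Of 7 desmosome genes 2 were higher, DSC2 (1.12) and DSG2 (0.64), and 0 lower. Of 11 epithelial regulators 2 were higher, EHF (0.74) and KLF5 (0.25), and 0 lower. KLF5 was low, at a mean of 0.410 TPM in control cells in enzalutamide, with a maximum of 3.65 TPM in any library. Mesenchymal and matrix genes had 0 higher and 4 of 9 lower, with TNC at -0.96 and COL6A1 at -0.84. The TGF-beta list had 0 higher and 4 of 11 lower (median -0.26), with ID2 at -1.65 and BAMBI at -0.84. After scaling, desmosome genes had 3 higher and 1 lower, and epithelial regulators 4 higher and 3 lower. Matrix genes then had 1 higher and 4 lower, and the TGF-beta list 0 higher and 5 lower. In that setting 20.6% of all genes were higher and 15.5% lower.

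Other lists were mixed in that comparison, where 7.07% of all tested genes passed (2.15% higher and 4.91% lower). OCLN (-0.54) was the 1 of 14 tight junction genes that passed, and 2 of 13 surface genes were lower, with CD24 at -0.98. No adherens junction gene of 9 passed (0 at an unadjusted p under 0.05). After scaling 3 of these were higher and 1 lower, and tight junction genes had 3 higher and 3 lower. In that setting 20.6% of all genes were higher and 15.5% lower. LEF1 (-0.50) was lower among 4 EMT factors and ITGB4 (-0.27) among 7 integrins. The luminal list had 5 of 10 higher, with KLK3 at 3.82 and SLC45A3 at 2.77, and 2 lower, with ACP3 at -0.34. With guide 2 in enzalutamide, where 1.25% of all tested genes passed, the lists gave NECTIN4 (0.44), MUC1 (0.38), KLK3 (0.85) and COL17A1 (0.22) higher, and LEF1 (-0.40) and ID2 (-0.85) lower. COL17A1 was low there, since all 9 basal markers summed to 1.47 to 1.63 TPM. Its highest value, 6.02 TPM, was in a library labelled guide 2 in vehicle.

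**Figure D4:**
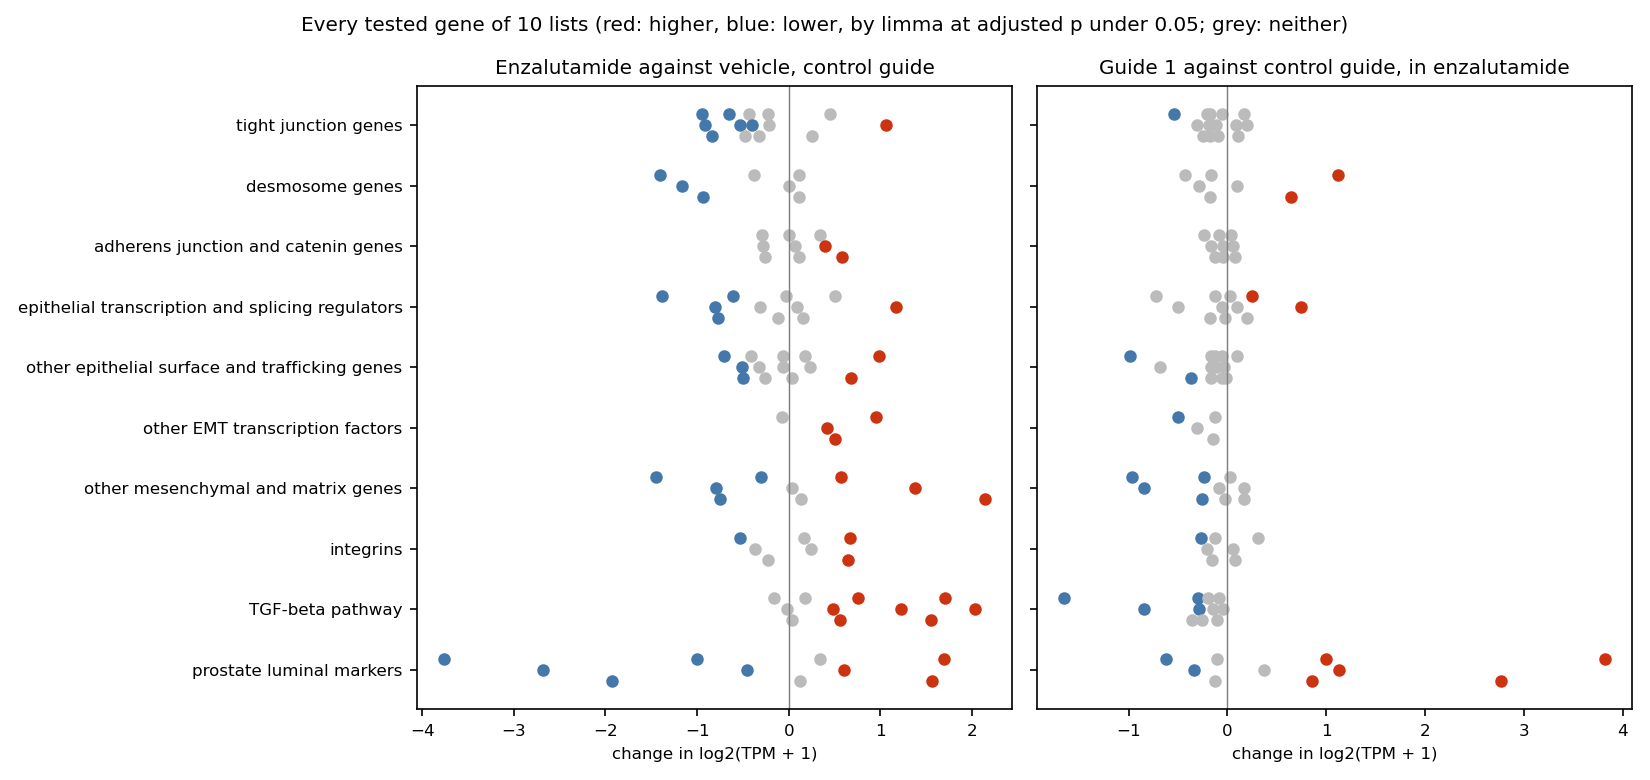
Change in log2(TPM + 1) of every tested gene of 10 lists, 1 point per gene, for enzalutamide against vehicle in control cells on the left and guide 1 against the control guide in enzalutamide on the right; red and blue mark genes higher and lower by limma at an adjusted p under 0.05. On the left 7 of 11 TGF-beta pathway genes are red, and on the right 4 of 11 are blue.

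The order of the groups differed from gene to gene. VIM ran from control vehicle (5.33 TPM) through the libraries labelled guide 2 in vehicle (3.62), guide 1 in vehicle (3.42), guide 2 in enzalutamide (1.90) and control in enzalutamide (1.06) to guide 1 in enzalutamide (0.673 TPM), and only the second and the third overlapped. SNAI2 was highest in the libraries labelled guide 2 in vehicle (10.7 TPM), followed by control (4.47) and guide 1 (4.20 TPM) in vehicle, which overlapped, then by guide 1 (0.793 TPM) and, overlapping each other, control (0.316) and guide 2 (0.315 TPM) in enzalutamide. KRT19 put guide 1 in enzalutamide (2.20 TPM) between control (2.36) and guide 1 (1.86 TPM) in vehicle, the 3 overlapping in turn, with guide 2 (0.814) and control (0.300 TPM) in enzalutamide lowest and apart. FN1 was highest in control (21.5) and guide 2 (17.3 TPM) in enzalutamide, which overlapped, and lowest with guide 1, at 8.03 TPM in vehicle and 6.57 TPM in enzalutamide. EPCAM was highest in control vehicle libraries (13.9 TPM), and guide 1 in enzalutamide (11.7), guide 1 in vehicle (11.2) and the libraries labelled guide 2 in vehicle (11.1 TPM) followed with overlap. Behind the libraries labelled guide 2 in vehicle (36.7 TPM), CDH1 ran from 26.0 to 17.8 TPM through groups that each overlapped the next. KRT18 ran from control vehicle (198 TPM) through those labelled guide 2 in vehicle (169 TPM) to 4 overlapping groups of 146 to 121 TPM.

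The genes whose pattern over the 18 libraries was most like that of each member were found by Pearson's r on scaled values, as a description, since libraries of a group share their treatment and the libraries labelled guide 2 in vehicle weigh heavily. SNAI2 was most like PTGER4 (0.994), SOX4 (0.990) and RGS2 (0.990). VIM was most like THRSP (0.974), UGT2B17 (0.962) and MYO6 (0.958), and KRT19 most like FAM162A (0.975), NKILA (0.968) and TRIM68 (0.962). FN1 had looser matches in FZD4 (0.947), TCEAL9 (0.920) and ZNF445 (0.914). KRT8 was most like its own pseudogene KRT8P3 (0.989), which shares its sequence, and ST14 (0.982) and SLC38A7 (0.982). KRT18 was nearest to TMEM214 (0.986), UQCC2 (0.976) and SLC25A33 (0.975), EPCAM to PPM1G (0.974), RARS1 (0.974) and MTIF2 (0.973), and CDH1 to AP1G1 (0.944), GLYR1 (0.922) and ELL3 (0.915).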

How the data were processed

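Per the labels' protocols, mRNA was enriched and made into stranded libraries that mark strand with dUTP and read as paired ends, and reads were demultiplexed with Bcl2fastq 2.19.1.403. STAR and GRCh38 are named in the submitters' processing notes. How reads were counted, and on which annotation, is not given in the sources used here. TPM per gene, a unit scaled to the same sum in each library, is what the authors deposited for 37347 rows and 18 libraries, so depth is unknown.

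Rows without a name (10345) and 69 rows of 3 symbols with 5 or more rows were left out, and 32 symbols with 2 to 3 rows were summed. Values became log2(TPM + 1), and genes at 1 TPM in at least 3 libraries were tested. limma 3.58.1 in R 4.3.3 was fitted with a trended prior to all 18 libraries, with a mean per group (12 residual degrees of freedom) and Benjamini-Hochberg adjustment over 13416 genes, called at an adjusted p under 0.05. The procedure was tested on simulated data with independent noise and no shift shared by the genes of a library. That test therefore does not cover the shifts of the median and the mitochondrial share described above. The other tools were matplotlib 3.10.9, pandas 2.3.3, numpy 2.4.6 and Python 3.11.15. Coordinates are from GENCODE release 29.

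The members, lists and tests were chosen with earlier results of these data known. From each list up to 2 genes in each direction with the largest change among those called were named, and per member the 3 genes of highest r with 5 TPM in the highest group mean. A few list genes within this rule are not reported here. ZEB2, TWIST1 and PRRX1, and list genes named for their marker level, were chosen after their values were seen. Deviations from group means of libraries with the same number correlated at 0.25, 0.11 and 0.20 between control and guide 1 cells in enzalutamide, which paired these groups, and no other pair passed 0.1 at every number. Alternatives were other pseudocounts, filters, scalings, array weights, a replicate block and leaving out libraries.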

Additional observations from a re-analysis of the deposited data

Results flagged for a closer look

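The drug's change in log2(TPM + 1) differed between a guide and the control guide, by limma's interaction term, for 10 gene and guide pairs. With guide 1 the differences were 1.57 for KRT19 (adjusted p = 5.9e-05), 0.96 for KRT18 (adjusted p = 0.040), 0.68 for EPCAM (adjusted p = 0.017), 0.53 for SNAI2 (adjusted p = 0.012) and -0.85 for FN1 (adjusted p = 0.034), where the median of all genes was 0.27. With guide 2, measured from the vehicle libraries that stand apart, they were 0.94 for VIM (adjusted p = 2.0e-04), 0.43 for EPCAM (adjusted p = 0.039), -1.10 for SNAI2 (adjusted p = 5.8e-07), -0.92 for KRT8 (adjusted p = 0.0040) and -0.52 for KRT19 (adjusted p = 0.040), where the median of all genes was -0.26. SNAI2 fell under the drug in all 3 guides, so its interactions are differences in the size of a fall, and they had opposite signs with the 2 guides. Both sets share the control libraries.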

How the results depend on the processing

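Depth is unknown, which leaves the precision of genes near or under 1 TPM unmeasured. In enzalutamide these were SNAI2, KRT19 in control and guide 2 cells, and VIM in control and guide 1 cells. Ratios to VIM in those groups rest on such levels. Replicates numbered 3 per group. Over all settings other than leaving out 1 library, 705 values of single genes kept direction and call, 125 gained and 49 lost a call, 32 without a call changed sign and 23 reversed. Leaving out 1 library gave 1294, 25, 104, 17 and 0. Leaving out the libraries labelled guide 2 in vehicle or guide 1 vehicle replicates 1 and 2, and the block within 2 groups, were chosen after seeing the data. The cause of the differences was not tested.

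The larger changes in the count of the 8 genes called follow, each with the share of all tested genes called in that setting. Smaller changes are left out, such as 7 for the guide 1 interaction with mitochondrial genes removed (30.0%). Another is 8 for enzalutamide in control cells with array weights (84.3%). Enzalutamide with guide 1 (2) gave 1 with a filter at 5 TPM, which removes VIM (31.3%), 6 with median-of-ratios scaling (48.5%), quantile normalization (48.0%) or mitochondrial genes removed (44.6%), and 5 without guide 1 vehicle replicates 1 and 2 (14.4%), or 6 with scaling as well (45.6%). Guide 1 in vehicle (6) gave 0 in a fit of its own libraries (0 genes in all), and 0 without those replicates (0.0224%), or with scaling as well (0.239%). Guide 1 in enzalutamide (4) gave 7 with scaling (36.1%) and 8 with quantile normalization (34.7%), mitochondrial genes removed (33.0%), array weights (71.2%) or those replicates left out and scaling (53.3%). Guide 2 in enzalutamide (0) gave 2 with a pseudocount of 0.1 (1.34%) or its own libraries (3.07%), 1 with no filter (2.43%), 5 with scaling (17.3%), quantile normalization (16.7%) or mitochondrial genes removed (16.9%), and 7 with array weights (69.3%). The guide 1 interaction (5) gave 1 with its own libraries (2.58%), 3 with the replicate block (4.37%) or without the libraries labelled guide 2 in vehicle (4.60%), and 2 without guide 1 vehicle replicates 1 and 2 (4.75%). The guide 2 interaction (5) gave 3 with a filter at 5 TPM (39.2%) and 8 with quantile normalization (66.3%) or array weights (86.9%). Guide 2 less guide 1 (4) gave 8 with scaling (47.0%), quantile normalization (45.6%), mitochondrial genes removed (43.7%), its own libraries (41.4%), array weights (68.1%) and those replicates left out (29.3%, or 62.1% with scaling).

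Leaving out 1 library at a time gave 5 to 7 calls for enzalutamide in control cells, 2 to 4 with guide 1 and 6 to 7 with guide 2, 0 to 8 for guide 1 and 5 to 6 for guide 2 in vehicle, 3 to 6 for guide 1 and 0 to 2 for guide 2 in enzalutamide, 2 to 7 and 3 to 6 for the interactions and 4 to 7 for guide 2 less guide 1. The share of all tested genes called moved in these fits as well. It ran from 0.0596% to 83.8% for guide 1 in vehicle and from 3.01% to 65.5% for the guide 1 interaction. It moved less for guide 2, from 52.2% to 71.2% in vehicle and from 0.574% to 5.04% in enzalutamide. Whether the counts of the 8 genes moved apart from that share was not tested. The pairing was by correlation only. Beyond the changes given in the report, the replicate block over all libraries left EPCAM with guide 1 in enzalutamide at 0.39 (adjusted p = 0.054).

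These values reversed, given for median-of-ratios scaling, quantile normalization and mitochondrial genes removed in turn: EPCAM for enzalutamide with guide 1 (-0.25, -0.26, -0.24), EPCAM (0.15, 0.18, 0.18), CDH1 (0.01, 0.08, 0.03) and SNAI2 (0.31, 0.32, 0.36) for guide 1 in vehicle, and CDH1 in the guide 1 interaction (-0.32, -0.42, -0.38). With the first and second only, EPCAM for enzalutamide with guide 2 (0.22 and 0.22) and FN1 in the guide 2 interaction (0.33 and 0.29) reversed. VIM in the guide 1 interaction reversed with mitochondrial genes removed (-0.24), and KRT18 with guide 2 in enzalutamide with array weights (0.11). Without guide 1 vehicle replicates 1 and 2 and with scaling, KRT18 for enzalutamide with guide 1 (-0.18) and CDH1 in the guide 1 interaction (-0.25) reversed.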
